A study of Mus musculus with 12 samples.

Results

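The nuclear genes of oxidative phosphorylation encode most subunits of the 5 enzyme complexes of the inner mitochondrial membrane. They were described here in primordial germ cells, the embryonic precursors of eggs and sperm. Members were the protein-coding genes whose symbols begin with Ndufa, Ndufb, Ndufc, Ndufs or Ndufv and a number, Sdha to Sdhd, those beginning with Uqcr, Cyc1, those beginning with Cox4 to Cox8, and those beginning with Atp5. The rule found 85 members among the 37991 gene identifiers of the count table, 37 of complex I, 4 of complex II, 9 of complex III, 18 of complex IV and 17 of complex V. Of these, 83 passed the filter on low counts. The exceptions were Cox8b, with no read in any of the 12 libraries, and Cox6a2, with 5 reads in female CKO 2, 1 read in male Ctrl 1 and none in the others. Both encode isoforms known from heart and skeletal muscle.

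RNA was sequenced from germ cells sorted from single C57BL/6 mouse embryos at E13.5, in days of embryonic development, with 1 library per embryo. The labels give 4 groups: female control (Ctrl, 3 embryos), female conditional knockout of Ezh2 (CKO, 2 embryos), male Ctrl (4 embryos) and male CKO (3 embryos). Ezh2 is the main methyltransferase of Polycomb repressive complex 2, which places the repressive histone mark H3K27me3. The labels leave unstated which Cre driver was used, what alleles the controls carried, which exons were removed and how embryos fell into litters.

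Complexes I and II pass electrons from NADH and succinate to coenzyme Q, complex III passes them to cytochrome c, and complex IV reduces oxygen. Complexes I, III and IV pump protons, and complex V, the ATP synthase, uses the resulting gradient to make ATP. A small set of subunits is encoded by mitochondrial DNA and the rest by the nucleus, and several complex IV subunits exist as a widely expressed gene and a paralogue restricted to muscle, lung or testis. At E13.5 female germ cells are entering meiosis, while male germ cells are becoming quiescent.

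Total counts ran from 26180685 to 35299206 per library. Levels are given as CPM, the read count relative to a library total that was scaled with TMM factors, and group levels as mean ± SD over embryos. Ezh2 itself was at 150.1, 145.0 and 165.9 CPM in female Ctrl and at 84.5 and 106.7 in female CKO. It was at 96.6, 144.1, 128.9 and 118.9 CPM in male Ctrl and at 85.8, 82.4 and 85.01 in male CKO. The groups did not overlap in either sex, and the Ezh2 log2 fold change was -0.68 ± 0.15 (SE) in females (edgeR adjusted p = 0.0200) and -0.53 ± 0.13 in males (edgeR adjusted p = 0.0527, just outside the threshold of 0.05; DESeq2 0.00644). Without female CKO 1 or female Ctrl 3 the female edgeR adjusted p was 0.165 and 0.0779. Ezh2 transcripts thus remained in every CKO library. Germ cell markers (8 of 8 detected, led by Dazl) summed to between 5850 and 6566 CPM, and markers of Sertoli, pregranulosa, Leydig, mesenchymal, red blood and macrophage cells summed to at most 50.2 CPM each in any library. Markers of endothelium summed to between 135.1 and 339.7 CPM, of which Pecam1, a gene also known in germ cells, reached 323.9, while Kdr stayed at or below 0.512 and Emcn at or below 0.102.

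The 4 coding sequences below are shown because the largest called CKO differences lay in the paralogues Cox8c and Cox7b2, and their widely expressed partners Cox8a and Cox7b are the counterparts against which they are read. Cox8c and Cox7b2 encode forms of complex IV subunits VIII and VIIb known from the testis. Sequences are those of GENCODE M21 on GRCm38, written 5′ to 3′, and capitals mark bases that differ from, or have no counterpart in, the paired gene. Cox8c lies on chromosome 12 and Cox8a on chromosome 19, and Cox7b2 lies on chromosome 5 and Cox7b on chromosome X.
Cox8c: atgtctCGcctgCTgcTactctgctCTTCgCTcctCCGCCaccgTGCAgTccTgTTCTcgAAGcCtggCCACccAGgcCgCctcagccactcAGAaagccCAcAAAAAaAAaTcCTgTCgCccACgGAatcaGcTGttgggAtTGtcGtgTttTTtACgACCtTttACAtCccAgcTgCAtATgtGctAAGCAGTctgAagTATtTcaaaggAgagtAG
Cox8a: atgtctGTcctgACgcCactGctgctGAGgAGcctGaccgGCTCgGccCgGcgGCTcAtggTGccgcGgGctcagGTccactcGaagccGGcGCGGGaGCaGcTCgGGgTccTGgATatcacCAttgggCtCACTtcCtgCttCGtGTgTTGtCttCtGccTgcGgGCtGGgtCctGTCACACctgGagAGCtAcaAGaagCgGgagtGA
Cox7b2: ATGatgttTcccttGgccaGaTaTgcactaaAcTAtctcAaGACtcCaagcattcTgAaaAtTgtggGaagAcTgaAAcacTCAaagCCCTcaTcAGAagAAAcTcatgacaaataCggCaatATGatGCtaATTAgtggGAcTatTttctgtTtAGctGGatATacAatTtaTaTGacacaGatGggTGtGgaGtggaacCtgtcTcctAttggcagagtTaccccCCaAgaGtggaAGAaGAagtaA
Cox7b: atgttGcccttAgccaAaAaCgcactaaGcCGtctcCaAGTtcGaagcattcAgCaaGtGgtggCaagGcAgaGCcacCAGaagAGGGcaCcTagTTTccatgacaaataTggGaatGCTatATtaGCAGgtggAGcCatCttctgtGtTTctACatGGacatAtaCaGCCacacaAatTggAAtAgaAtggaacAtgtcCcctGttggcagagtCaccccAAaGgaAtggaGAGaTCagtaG
Over aligned bases the coding sequences of Cox8c and Cox8a were 57.9% identical and those of Cox7b2 and Cox7b 66.9%. The longest run of bases shared by the transcripts of a pair was 9 for Cox8c and Cox8a and 11 for Cox7b2 and Cox7b. Reads of one gene of a pair therefore had no long exact match in the other.

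Members were among the more highly expressed genes of these cells. The median level over the 83 tested members, as CPM per kilobase of transcript and averaged over the 12 libraries, was 191.5. It was 5.36 over the tested genes with an annotated length, which were 95.92% of the 16708. The members' median stood at the 97.1 percentile of those genes. Together they took between 1.69% and 2.10% of the counts of a library. Per kilobase, the highest was Atp5b, the catalytic beta subunit of the ATP synthase, at 1759. Complex V had the highest median (300.5), followed by complex III (241.4), complex IV (197.9), complex II (187.2) and complex I (125.4). Within complex I the range ran from Ndufa4l2 (3.21), a paralogue known to be induced by low oxygen, to Ndufa4 (373.3), a subunit named after complex I and now assigned to complex IV. Within complex II it ran from Sdhc (38.1), a membrane anchor, to Sdha (230.1), the flavoprotein that oxidises succinate. Within complex III it ran from Uqcrfs1 (135.5), the Rieske iron-sulfur protein, to Uqcrb (529.8), a subunit near the ubiquinone site.

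Complex IV had the widest range. Its highest member was Cox4i1 (705.8 CPM per kilobase), the widely expressed form of subunit IV, and its lowest was Cox4i2 (0.206), the form known from lung and low oxygen. In each isoform pair the widely expressed gene was higher per kilobase in every library. Cox6b2, the form of subunit VIb known from sperm, was the most abundant of the restricted isoforms: its share of the summed Cox6b1 and Cox6b2 level per kilobase was between 20.5% and 39.9%. Cox7a1, the heart and muscle form of subunit VIIa, held between 6.34% and 15.2% of the Cox7a1 and Cox7a2 sum. Cox7b2 held between 1.70% and 19.5% of its pair, Cox8c between 0.601% and 7.35%, and Cox4i2 at most 0.0851%.

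**Figure D1:**
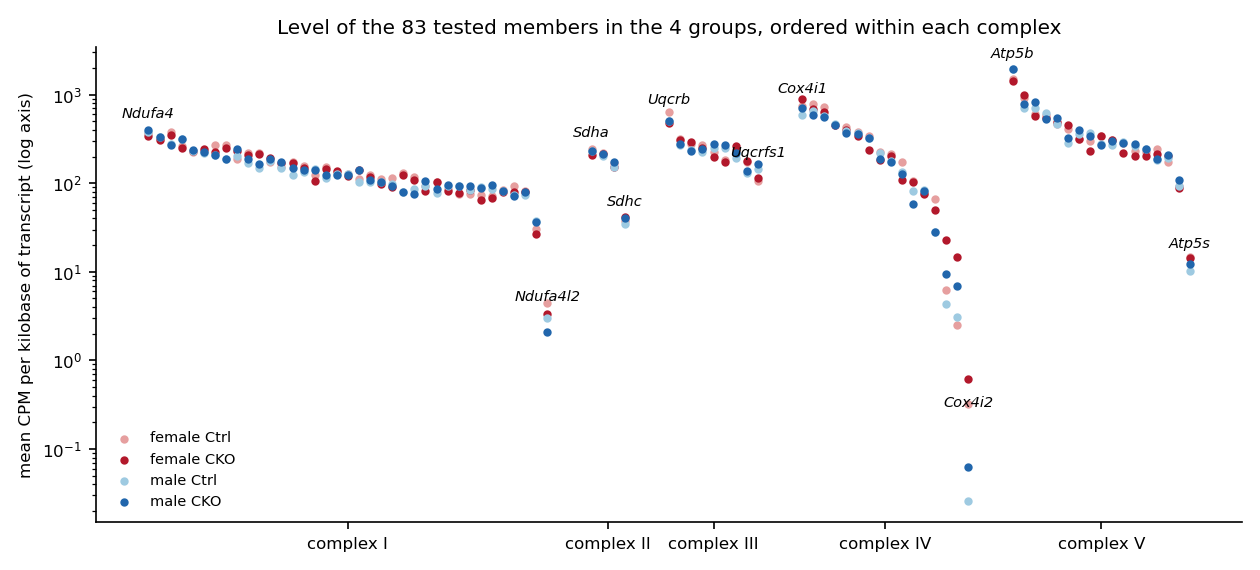
Mean level of each of the 83 tested members in the 4 groups, as CPM per kilobase of transcript on a log axis, ordered within each complex, with the highest and lowest member of each complex named. Most members lie near the median of 191.5, and the restricted isoforms of complex IV form a tail down to Cox4i2 at 0.206.

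In female germ cells, CKO against Ctrl, 2 members were higher (Cox8c and Cox7b2) and 1 was lower (Cox7b), and all 3 belong to complex IV. That is 2.41% of tested members higher and 1.20% lower, against 3.01% and 4.16% of all tested genes (7.17% in either direction). The median log2 fold change of the members was -0.07, against 0.00 for all genes. A further 9 members had an unadjusted p under 0.05 without passing the adjusted threshold, which makes 14.5% of members at that level against 23.3% of all genes. Of the members, 81.9% lay within 0.25 log2 units of no change, against 41.4% of all genes, a comparison that was not matched on expression level. In these bulk libraries, fewer cells expressing a gene and less RNA per cell cannot be told apart.

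Cox8c was at 1.26, 0.970 and 1.20 CPM in female Ctrl and at 7.35 and 6.02 in female CKO, from 31 to 41 and from 200 to 251 reads per library. Both CKO embryos were far above all Ctrl embryos. The log2 fold change was 2.54 ± 0.30 (SE), a 5.83-fold rise (edgeR adjusted p = 0.00156), and it stayed below the threshold when any female embryo was left out and in every other setting tried. The share of Cox8c in its pair went from 0.745% ± 0.191 (SD, n = 3) to 6.03% ± 1.87 (SD, n = 2), so Cox8a remained by far the more abundant.

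Cox7b2 was at 1.69, 4.63 and 3.88 CPM in female Ctrl and at 14.7 and 10.1 in female CKO. The groups did not overlap, although female Ctrl 1 was well below the other Ctrl embryos. The log2 fold change was 1.87 ± 0.43 (edgeR adjusted p = 0.0232). Leaving out female CKO 1, female CKO 2, female Ctrl 1 or female Ctrl 3 took Cox7b2 past the threshold, with adjusted p from edgeR of 0.146, 0.0620, 0.0577 and 0.0644. The share of Cox7b2 in its pair went from 3.54% ± 1.60 (SD, n = 3) to 17.3% ± 3.12 (SD, n = 2).

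Cox7b, the widely expressed X-linked partner, moved the other way. It was at 179.9, 186.8 and 150.1 CPM in female Ctrl and at 112.2 and 105.1 in female CKO, with no overlap. The log2 fold change was -0.67 ± 0.14 (edgeR adjusted p = 0.0148). Without female CKO 1, female CKO 2 or female Ctrl 2 the edgeR adjusted p was 0.0685, 0.113 and 0.0562. Cox8a, the partner of Cox8c, was at 155.7, 192.4 and 213.5 CPM in female Ctrl and at 111.2 and 146.4 in female CKO, and its log2 fold change of -0.54 ± 0.18 did not pass the threshold (edgeR adjusted p = 0.0913; limma-voom 0.0382).

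**Figure D2:**
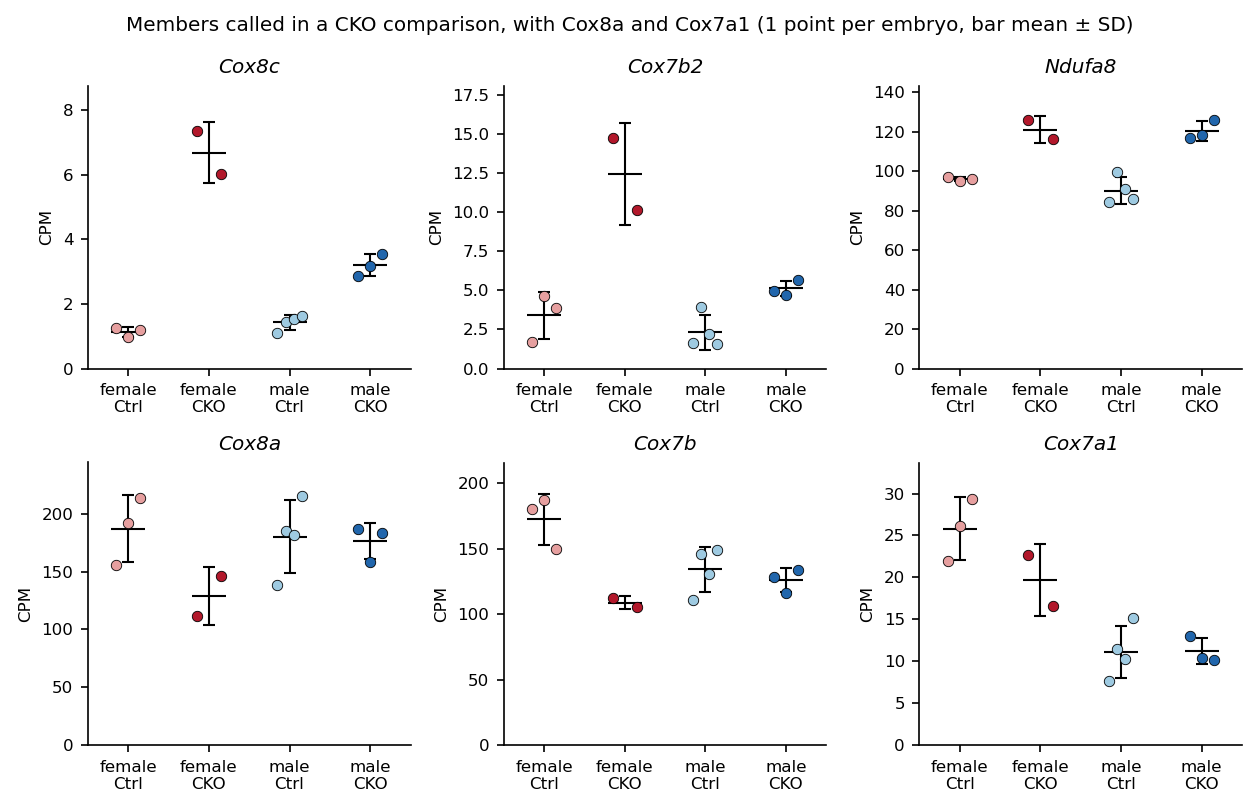
Levels in CPM of the 4 members called in a CKO comparison (Cox8c, Cox7b2, Ndufa8, Cox7b), with Cox8a and Cox7a1, 1 point per embryo and bars for mean ± SD; each panel has its own axis from 0. Cox8c rises from about 1 CPM in both Ctrl groups to 7.35 and 6.02 in female CKO and to between 2.88 and 3.54 in male CKO.

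The other complexes held no called member in females. Complex I members (37 tested) ran from -0.41 to 0.34 in log2 fold change. Its core catalytic subunits Ndufs1 (-0.08 ± 0.10) and Ndufv1 (0.15 ± 0.10) were close to no change, and Ndufa8, an accessory subunit of the membrane arm, was nearest to a call. Ndufa8 was at 97.1, 94.8 and 95.7 CPM in female Ctrl and at 125.8 and 116.1 in female CKO, with no overlap (0.34 ± 0.10, edgeR adjusted p = 0.0592; DESeq2 0.00887). The 4 complex II members ran from -0.22 to 0.16, the 9 of complex III from -0.38 to 0.14 and the 17 of complex V from -0.36 to 0.23. At the ends of these ranges stood Sdha (-0.22 ± 0.11), Uqcrb (-0.38 ± 0.14) and Atp5a1 (-0.36 ± 0.14), the alpha subunit of the ATP synthase, none of which passed the test.

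Markers of other cells and of germ cells also differed between the female groups. None of the 7 Sertoli, 6 pregranulosa, 7 mesenchymal, 6 red blood cell or 5 macrophage markers tested was called. The fitted change was positive for 6 of 7 mesenchymal markers, 3 of them at an unadjusted p under 0.05, and for 6 of 6 red blood cell markers, 2 of them at that level. The mesenchymal sum was 2.50 to 11.3 CPM in female Ctrl and 11.2 to 32.5 in female CKO. The red blood cell sum reached 16.5 CPM in female CKO 1 and 1.14 in female CKO 2. Of the 5 endothelial markers tested, Pecam1 and Cldn5 were called lower. The fitted change was positive, without a call, for Cdh5 (2.48), Kdr (1.61) and Tek (0.48). Endothelial sums were 243.1 to 304.9 CPM in Ctrl and 135.1 to 164.0 in CKO. Of the 8 germ cell markers, Pou5f1, Dppa3 and Sall4 were called lower. The fitted change was negative for 6 of 8 and positive, without a call, for Dazl (0.04) and Ddx4 (0.18). Germ cell sums were 6241 to 6447 CPM in Ctrl and 5850 to 5863 in CKO. The part of these markers in the results above was not tested.

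In male germ cells, CKO against Ctrl, 2 members were higher (Cox8c and Ndufa8) and none was lower. That is 2.41% of tested members higher, against 1.20% of all genes higher, 0.497% lower and 1.70% in either direction. The median log2 fold change of the members was 0.04, against -0.02 for all genes. A further 9 members had an unadjusted p under 0.05, which makes 13.3% of members against 16.7% of all genes. Within 0.25 log2 units of no change lay 89.2% of members, against 53.3% of all genes. This comparison too was not matched on expression level, and the median SE was 0.118 for members and 0.219 for all genes.

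Cox8c was at 1.11, 1.44, 1.52 and 1.63 CPM in male Ctrl and at 2.88, 3.19 and 3.54 in male CKO. The groups did not overlap, and the log2 fold change was 1.17 ± 0.25, a 2.25-fold rise (edgeR adjusted p = 0.0354). Leaving out any male embryo but Ctrl 2 took the adjusted p from edgeR to between 0.05005 and 0.143, with log2 fold changes between 1.064 and 1.25, and with no filter on low counts it was 0.0556. Ndufa8 was at 84.4, 99.3, 90.8 and 85.7 CPM in male Ctrl and at 116.5, 118.2 and 126.0 in male CKO, again without overlap (0.42 ± 0.08, edgeR adjusted p = 0.0279). Without male CKO 2, male CKO 3, male Ctrl 3 or male Ctrl 4 its edgeR adjusted p was 0.116, 0.126, 0.0698 and 0.0658. With only the male groups in the edgeR fit the adjusted p was 0.0916 for Cox8c and 0.0857 for Ndufa8.

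Cox7b2 was at 1.61, 3.96, 2.18 and 1.55 CPM in male Ctrl and at 4.97, 4.72 and 5.68 in male CKO. The CKO embryos were above all Ctrl embryos, and the log2 fold change of 1.15 ± 0.37 did not pass the threshold (edgeR adjusted p = 0.140; DESeq2 0.0419; limma-voom 0.0428; edgeR without male Ctrl 2 0.0334). Cox7b was level between the male groups (-0.09 ± 0.11), and so was Cox8a (-0.03 ± 0.15). Cox6b2 was at 30.2, 34.5, 40.7 and 48.1 CPM in male Ctrl and at 25.4, 20.9 and 34.4 in male CKO, with overlap (-0.51 ± 0.20, edgeR adjusted p = 0.208; limma-voom 0.0446). No marker list had a called gene in this comparison, and the red blood cell sum stood at 20.9 CPM in male CKO 1 against at most 1.43 in the other male libraries.

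**Figure D3:**
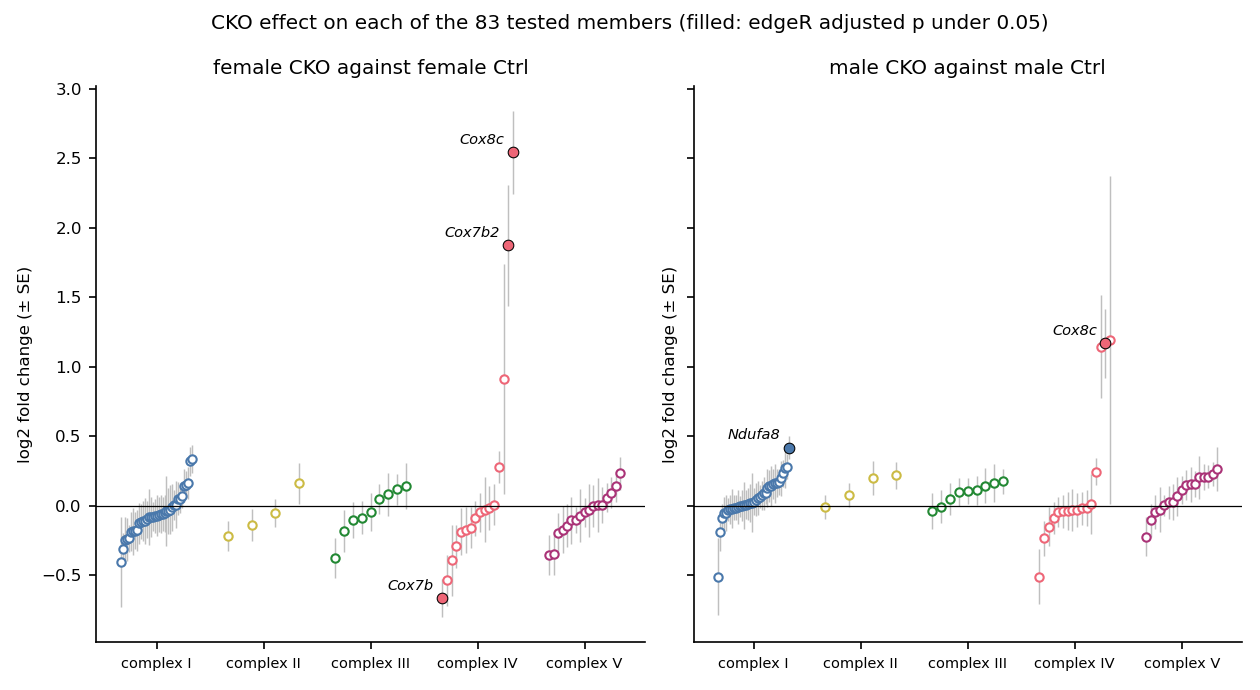
Log2 fold change (± SE) of CKO against Ctrl for each of the 83 tested members, by complex and sex; filled points passed edgeR's adjusted threshold and are named. Complexes II, III and V have no filled point in either sex, and in complex IV Cox8c stands at 2.54 in females and 1.17 in males.

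The CKO effect was then compared between the sexes by the difference of the 2 effects. No member was called, and no gene of the 16708 was (0% in either direction). At an unadjusted p under 0.05 there were 3 members (Cox8c, Cox7b and Sdhd) in edgeR, 3 in DESeq2 and 7 in limma-voom, and 1401 genes in edgeR. DESeq2 called 50 genes and limma-voom none, and neither called a member. Cox8c had the largest member difference, 1.38 ± 0.39 in log2 units, female minus male (edgeR adjusted p = 0.425). Cox7b differed by -0.57 ± 0.18 (edgeR adjusted p = 0.493), and Cox7b2 by 0.73 ± 0.58 (edgeR adjusted p = 0.753). Across the 83 members, which are not independent replicates, the log2 fold changes in females and males had a Pearson r of 0.83. Without the 6 restricted isoform genes tested, a set chosen after values were seen, r was 0.616 over 77 members, and over all tested genes it was 0.378. The 2 comparisons share no library. The effects had the same sign for 47 of 83 members.

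Summed over each complex, levels differed little between CKO and Ctrl. For complex I the sums were 4716, 5000 and 5408 CPM in female Ctrl and 5328 and 4477 in female CKO, which overlapped. CKO and Ctrl embryos of the same sex overlapped in the other complexes too. CKO over Ctrl ratios of the mean sums ran from 0.912 (complex II) to 0.990 (complex III) in females and from 0.990 (complex IV) to 1.05 (complexes I, II and III) in males. The direction in females depended on the TMM scaling. Over all members the scaled ratio was 0.959 in females and 1.03 in males. As a share of unscaled counts, members took 1.935% in female Ctrl and 2.011% in female CKO, and 1.776% and 1.88% in males. Female CKO 1 was above female CKO 2 in all 5 complexes. The complex V sum was 7089, 7501 and 8131 CPM in female Ctrl and 7367 and 7103 in female CKO. In males it was 7984, 8916, 7966 and 8350 in Ctrl and 8397, 8847 and 8430 in CKO. All 5 female libraries but Ctrl 3 were thus below every male library, and Ctrl 3 lay within the male Ctrl range. Without Atp5b the complex V sum was 4674 ± 341 CPM (SD, n = 3) in female Ctrl and 4543 ± 355 (SD, n = 4) in male Ctrl.

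**Figure D4:**
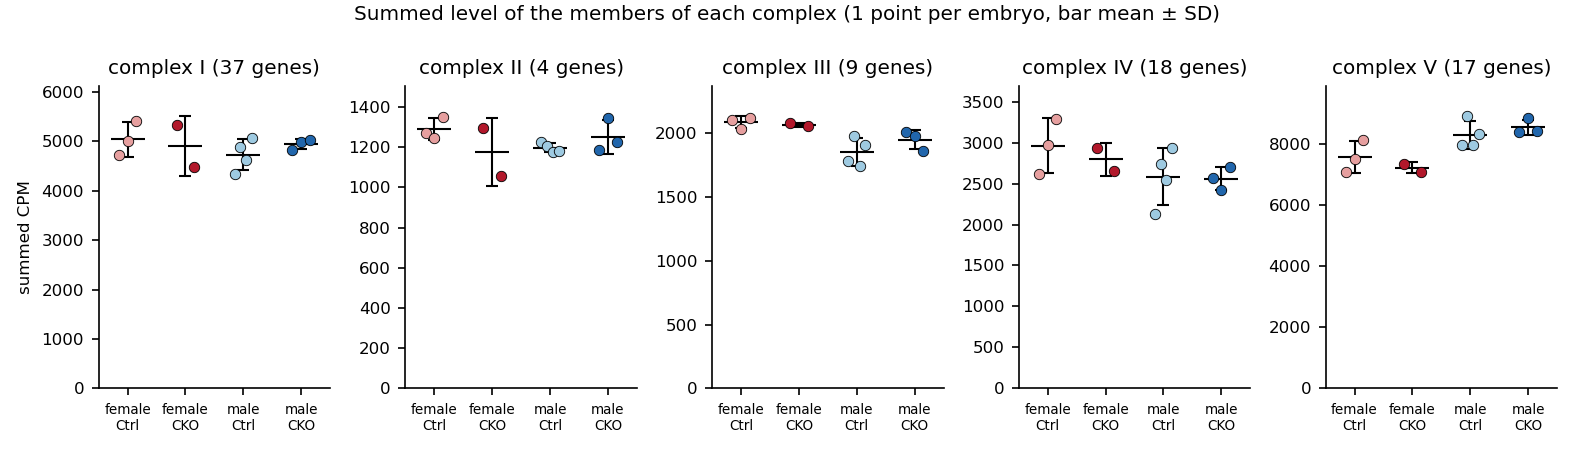
Summed CPM of the members of each complex, 1 point per embryo with bars for mean ± SD, in 5 panels that each start at 0. CKO and Ctrl points of the same sex overlap in each panel, and complex V is lower in females, with group means of 7574 and 7235 CPM against 8304 and 8558 in males.

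Between the sexes 32.5% of tested members were called in Ctrl embryos and 30.1% in CKO embryos, smaller shares than among all genes. In Ctrl embryos 21 members were higher in females and 6 lower, which is 25.3% and 7.23% of tested members against 20.1% and 19.4% of all genes (39.5% in either direction). The median log2 fold change, female against male, was 0.10 for members and 0.00 for all genes. In CKO embryos 12 members were higher in females and 13 lower, or 14.5% and 15.7% of tested members against 19.4% and 19.0% of all genes (38.4% in either direction), with medians of 0.01 and 0.03. The members called higher include Cox4i2, which passed the low-count filter only through its female libraries. Without Cox4i2, 20 of 82 members were higher in females in Ctrl and 11 of 82 in CKO. When libraries were scaled by total counts alone, the median of all genes moved to 0.10 in Ctrl and 0.21 in CKO, and the splits became 31 higher and 4 lower in Ctrl and 23 higher and 6 lower in CKO. The number higher was 12 in Ctrl without female Ctrl 2. In CKO it was 1 without female CKO 1, 6 without male CKO 1 and 3 without male CKO 2. The number lower in CKO was 6 without female CKO 2, 7 without male CKO 1 and 7 without male CKO 3.

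Within complex I, 11 of 37 members were higher and 3 lower in female Ctrl (29.7% and 8.11%, against 20.1% and 19.4% of all genes). Ndufa1, an X-linked accessory subunit needed for assembly, was at 58.8, 53.5 and 49.9 CPM in female Ctrl and at 22.8, 36.1, 33.3 and 39.7 in male Ctrl. The groups did not overlap (0.71 ± 0.21, edgeR adjusted p = 0.0151), and in CKO embryos the difference was 0.65 ± 0.25 (edgeR adjusted p = 0.0528). The Ctrl call was lost without female Ctrl 1. Ndufa2 and Ndufa6, accessory subunits of the matrix arm, were higher in females in both genotypes, by 0.55 ± 0.12 and 0.46 ± 0.10 in Ctrl and by 0.43 ± 0.15 and 0.38 ± 0.12 in CKO. Ndufa10, an accessory subunit, was lower in females in both genotypes (-0.33 ± 0.07 and -0.26 ± 0.09), as was Ndufa7 (-0.27 ± 0.10 and -0.34 ± 0.12). The Ctrl call of Ndufa7 was lost without female Ctrl 1, female Ctrl 2, male Ctrl 3 or male Ctrl 4. In CKO the Ndufa10 call was lost when any 1 CKO embryo was left out, the Ndufa7 call when any but female CKO 1 was, and the Ndufa2 and Ndufa6 calls without female CKO 1, male CKO 1 or male CKO 2. Scaling by total counts alone, removal of the GC trend, the 5 CPM filter, no filter on low counts and the replicate block each also ended the Ndufa7 call in Ctrl and the Ndufa10 and Ndufa7 calls in CKO. A fit of only the groups compared ended the Ndufa7 call in Ctrl and the Ndufa10 call in CKO. Further accessory subunits higher in female Ctrl were Ndufb8 (0.39 ± 0.10), Ndufs5 (0.54 ± 0.14), Ndufb6 (0.42 ± 0.11), Ndufb7 (0.49 ± 0.15), Ndufc1 (0.41 ± 0.14), Ndufs6 (0.38 ± 0.14) and Ndufb2 (0.35 ± 0.13). The Ndufs5 call was lost without female Ctrl 2 (edgeR adjusted p = 0.0656). Whether the calls of the last 4 of these subunits held under the alternative settings is not given here. Lower in female CKO than in male CKO, and not called in Ctrl, were Ndufb10 (-0.49 ± 0.13), Ndufb3 (-0.44 ± 0.14) and Ndufv3 (-0.48 ± 0.17). All 3 of these CKO calls were lost without female CKO 2 and with scaling by total counts alone, those of Ndufb3 and Ndufv3 also without male CKO 1 or male CKO 3, and that of Ndufv3 also without female CKO 1 or male CKO 2. The Ndufb3 call was lost with the replicate block too, and the Ndufv3 call with the GC trend removed or the 5 CPM filter.

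The 3 X-linked members, Ndufa1, Ndufb11 and Cox7b, were all higher in female Ctrl, as were 230 of the 572 tested protein-coding genes of that chromosome (40.2%). Ndufb11, an accessory subunit, was at 111.9, 120.0 and 84.5 CPM in female Ctrl and at 74.8, 74.4, 72.5 and 89.6 in male Ctrl, with overlap (0.44 ± 0.14, edgeR adjusted p = 0.0215). In CKO it was at 113.5 and 82.1 in females and at 65.7, 66.6 and 72.4 in males (0.52 ± 0.16, edgeR adjusted p = 0.0228). Cox7b was 0.36 ± 0.11 higher in female Ctrl (edgeR adjusted p = 0.0216). In CKO embryos, after its lower level in female CKO, the Cox7b difference was -0.21 ± 0.14 (edgeR adjusted p = 0.234). The Ndufb11 Ctrl call was lost without female Ctrl 1, female Ctrl 2 or male Ctrl 3, and its CKO call without female CKO 1, male CKO 1 or male CKO 2. The Cox7b Ctrl call was lost without female Ctrl 1, female Ctrl 2 or male Ctrl 1, and with the GC trend removed.

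No complex II member was called between the sexes, against 39.5% of all genes in Ctrl and 38.4% in CKO. The 4 members ran from 0.08 to 0.16 in Ctrl and from -0.198 to 0.065 in CKO. In complex III the direction depended on the subunit. Uqcrc2, a core protein, was at 318.4, 337.9 and 335.1 CPM in female Ctrl and at 212.1, 277.4, 249.0 and 242.8 in male Ctrl (0.43 ± 0.09, edgeR adjusted p = 0.00206). Uqcrfs1 was lower, at 133.9, 152.8 and 149.2 CPM in female Ctrl and at 175.0, 223.8, 194.7 and 200.1 in male Ctrl (-0.45 ± 0.09, edgeR adjusted p = 0.00192). Neither gene's groups overlapped. Uqcrq, a small subunit, was also lower, by -0.44 ± 0.10 in Ctrl and -0.63 ± 0.12 in CKO. The calls of Uqcrfs1 and Uqcrq held in both genotypes under every setting tried, and that of Uqcrc2 in Ctrl, while the Uqcrc2 call in CKO (0.38 ± 0.11) was lost without female CKO 1. Uqcrb was 0.33 ± 0.12 higher in female Ctrl, a call lost without female Ctrl 2, female Ctrl 3, male Ctrl 1 or male Ctrl 3, and with the GC trend removed (edgeR adjusted p = 0.105). Uqcr10, a small subunit, was lower in female CKO than in male CKO (-0.46 ± 0.16), a call lost when any CKO embryo but male CKO 2 was left out, with scaling by total counts alone, with the GC trend removed and with the 5 CPM filter. Cyc1, cytochrome c1, was 0.29 ± 0.14 higher in female Ctrl without passing the test (edgeR adjusted p = 0.114).

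In complex IV, 4 of 16 tested members were higher in female Ctrl and 6 of 16 in female CKO, and none was lower in either genotype. Of all genes, 20.1% were higher and 19.4% lower in female Ctrl, and 19.4% higher and 19.0% lower in female CKO. Cox7a1 was at 22.0, 26.2 and 29.4 CPM in female Ctrl and at 7.59, 11.4, 10.3 and 15.1 in male Ctrl. Every female Ctrl embryo was above every male Ctrl embryo, a 2.33-fold difference (1.22 ± 0.21 in log2 units, edgeR adjusted p = 0.000580). In CKO embryos Cox7a1 differed by 0.81 ± 0.25 (edgeR adjusted p = 0.0222), a call lost without female CKO 1, male CKO 2 or male CKO 3. Cox4i1 was higher in females by 0.33 ± 0.09 in Ctrl and 0.36 ± 0.11 in CKO, calls lost without female Ctrl 3 and without female CKO 1 or male CKO 2. The Cox4i1 CKO call was also lost with the GC trend removed (edgeR adjusted p = 0.0955). Cox4i2 had 22 reads over the 3 female Ctrl libraries and 2 over the 4 male Ctrl libraries, a CPM ratio of 13.52 with a 95% counting interval of 3.32 to 119. In CKO it had 30 reads in females and 4 in males, a ratio of 9.73 (interval 3.43 to 38.0). Cox4i2 passed the low-count filter only through its female libraries, so its calls are no support for a difference. Without it 3 of 15 complex IV members were higher in female Ctrl and 5 of 15 in female CKO. The share higher in Ctrl was then close to that of all genes.

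Cox8c, Cox7b2 and Cox6b2 were higher in females among CKO embryos and did not pass the test among Ctrl embryos. Cox8c differed by 1.060 ± 0.29 in CKO (edgeR adjusted p = 0.0104, and 0.0994 without female CKO 1) and by -0.32 ± 0.26 in Ctrl (edgeR adjusted p = 0.365). Cox7b2 differed by 1.28 ± 0.43 in CKO (edgeR adjusted p = 0.0309) and 0.55 ± 0.38 in Ctrl, and leaving out female CKO 1 or any male CKO embryo ended its CKO call. Cox6b2 differed by 0.83 ± 0.23 in CKO (edgeR adjusted p = 0.0122) and 0.34 ± 0.19 in Ctrl, and leaving out female CKO 2 or male CKO 2 ended its CKO call. The test of a genotype-dependent sex difference is the same as that of a sex-dependent CKO effect, given above, and called none of them.

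In complex V, Atp5b was at 2711, 2905 and 3084 CPM in female Ctrl and at 3877, 4007, 3546 and 3612 in male Ctrl. All females were below all males (-0.38 ± 0.08, edgeR adjusted p = 0.00184), as they were in CKO, with 2691 and 2710 CPM against 3620, 4002 and 3682 (-0.48 ± 0.09, edgeR adjusted p = 0.00130). Both Atp5b calls held under every setting tried. Atp5f1, subunit b of the peripheral stalk, ran the other way, at 668.7, 619.9 and 680.0 CPM in female Ctrl and at 407.1, 469.9, 444.4 and 486.7 in male Ctrl (0.54 ± 0.09, edgeR adjusted p = 0.000595). In CKO Atp5f1 differed by 0.47 ± 0.11, a call lost without female CKO 1. The 3 genes for the identical mature subunit c of the rotor differed among themselves. Atp5g3 was higher in females by 0.39 ± 0.09 in Ctrl and 0.33 ± 0.11 in CKO, the latter lost when any CKO embryo but male CKO 3 was left out and with no filter on low counts. Atp5g1 was at -0.22 ± 0.09 in Ctrl (not called) and -0.49 ± 0.11 in CKO (called in every setting tried). Atp5g2 was at -0.05 ± 0.14 and 0.07 ± 0.17. Atp5a1 was at 764.8, 709.4 and 725.5 CPM in female Ctrl and between 792.0 and 1032 in male Ctrl (-0.30 ± 0.12, edgeR adjusted p = 0.0645), and its CKO difference was -0.55 ± 0.15 (edgeR adjusted p = 0.00937, a call lost without female CKO 1). Also higher in female Ctrl were Atp5j2 (0.42 ± 0.12), lost without female Ctrl 3, and Atp5s (0.53 ± 0.16), lost without female Ctrl 2. Atp5h, a peripheral stalk subunit, was lower in female CKO than in male CKO (-0.45 ± 0.17). Whether this call held under the alternative settings is not given here.

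**Figure D5:**
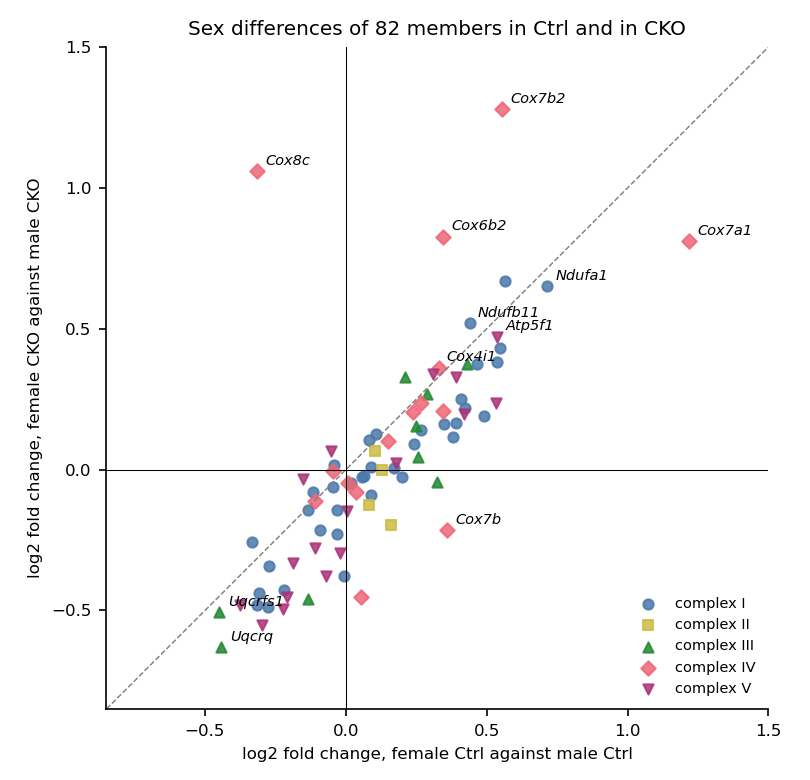
Log2 fold change of females against males in Ctrl embryos (horizontal) and CKO embryos (vertical) for 82 tested members, marked by complex, with the line of equal difference dashed; Cox4i2 lies outside the axes and is left out. Most members lie near the line, and Cox8c (-0.32 and 1.060), Cox7b2 (0.55 and 1.28) and Cox7b (0.36 and -0.21) lie farther from it.

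The 2 sex comparisons share no library. Called in both were 15 members, all in the same direction, or 55.6% of the 27 called in Ctrl and 60.0% of the 25 called in CKO. Of all tested genes 4740 were called in both, or 71.8% of those called in Ctrl and 73.9% of those called in CKO, 4738 of them in the same direction. Without Cox4i2, 14 members were called in both. Across the 83 members, Cox4i2 among them, the log2 fold changes had a Pearson r of 0.878, against 0.790 over all tested genes. Over the 77 members without the restricted isoform genes, and so without Cox4i2, r was 0.886. Of the Sertoli markers, 5 of 7 were called lower in female Ctrl. Aard (0.08) and Fgf9 (0.49) had a positive fitted change without a call. Sertoli sums were 11.3 to 14.4 CPM in female Ctrl and 18.1 to 50.2 in male Ctrl, highest in male Ctrl 1. Of the pregranulosa markers, 4 of 6 were called higher in female Ctrl. Fst (-0.71) and Rspo1 (-0.68) had a negative fitted change without a call. Pregranulosa sums were 15.8 to 28.4 CPM in female Ctrl and 5.45 to 13.52 in male Ctrl. Sox9, Amh and Cst9, which mark Sertoli cells, were each at 0 in 2 to 5 libraries, and Foxl2, which marks pregranulosa cells, was at 0 in 6. Also called lower in female Ctrl were 3 of 5 endothelial markers (Cldn5, Cdh5 and Tek) and 1 of 4 Leydig markers (Nr5a1). Pecam1 (0.22) and Kdr (0.48) had a positive fitted change without a call. Of the 8 germ cell markers, Dppa3, Prdm1 and Pou5f1 were called lower, Dazl and Tfap2c higher, and 3 were not called. Mesenchymal, red blood cell and macrophage markers had no call in Ctrl. The part of these markers in the sex differences was not tested.

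The 13 subunit genes of mitochondrial DNA, all tested, had no called member in either CKO comparison, with medians of -0.18 in females and -0.26 in males. Of all genes, 7.17% were called in the female and 1.70% in the male CKO comparison. Between the sexes 2 of 13, mt-Atp6 and mt-Atp8, were called lower in females in both genotypes, which is 15.4% of the list against 19.4% (Ctrl) and 19.0% (CKO) of all genes. The level of mt-Atp6 was 332.3, 426.8 and 538.9 CPM in female Ctrl and between 571.1 and 735.8 in male Ctrl, without overlap (-0.60 ± 0.16, edgeR adjusted p = 0.00771).

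Among factors that build the complexes, calls in females CKO against Ctrl were 1 of 16 for complex I (Ndufaf6 lower, -0.53 ± 0.13), 0 of 10 for complexes II and III, 1 of 19 for complex IV (Cox10, a haem A synthesis enzyme, higher, 0.52 ± 0.14) and 0 of 4 for complex V. These are 6.25% of the complex I list and 5.26% of the complex IV list, against 7.17% of all genes called in either direction. Cytochrome c and coenzyme Q genes had 0 of 15 and the mitochondrial ribosome 0 of 76. The citrate cycle list had 1 higher and 1 lower of 19 (5.26% each, against 3.01% and 4.16% of all genes). The one lower was Pdhb, the beta subunit of pyruvate dehydrogenase. Pdhb was at 231.8, 247.0 and 272.8 CPM in female Ctrl and at 181.5 and 166.5 in female CKO, without overlap (-0.53 ± 0.11, edgeR adjusted p = 0.0165). The one higher was Pdha2, the testis form of the pyruvate dehydrogenase alpha subunit. Pdha2 was at 2.52, 5.19 and 4.15 CPM in female Ctrl and at 15.7 and 11.8 in female CKO (1.79 ± 0.42, edgeR adjusted p = 0.0233). Male Ctrl embryos had 3.04, 5.69, 2.68 and 1.59 CPM and male CKO embryos 6.497, 7.07 and 6.64, without overlap and without passing the test (1.05 ± 0.36, edgeR adjusted p = 0.151). Cyct, the testis form of cytochrome c, was 0.34 ± 0.17 higher in female CKO and did not pass either (edgeR adjusted p = 0.253).

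Regulators of mitochondrial biogenesis had 3 lower of 17 in female CKO (17.6%, against 4.16% of all genes). Tfam, which packages and transcribes mitochondrial DNA, was at 91.3, 96.1 and 106.9 CPM in female Ctrl and at 57.3 and 67.9 in female CKO (-0.65 ± 0.14, edgeR adjusted p = 0.0165). Polg, the mitochondrial DNA polymerase, fell by 0.71 ± 0.16 on the log2 scale, and Mycn by 0.50 ± 0.13. Glycolysis genes had 4 lower of 23 in female CKO (17.4%, against the same 4.16%), among them Pkm (-0.60 ± 0.11) and Ldhb (-0.84 ± 0.16). In male CKO the lists of assembly factors, citrate cycle, biogenesis regulators and mitochondrial ribosome had no called gene, and glycolysis had 1 (Aldoc, higher by 0.92 ± 0.17). Of all genes, only 1.70% were called in either direction in that comparison. In the Ctrl sex comparison the mitochondrial ribosome had 8 higher and 24 lower of 76, and glycolysis 4 higher and 9 lower of 23 (all genes 20.1% higher and 19.4% lower), with Ldha at 2.21 ± 0.15 and Pkm at -0.80 ± 0.09 in log2 units. Whether the calls in these lists held under the alternative settings is not given here.

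Regions upstream of the members were read from the RefSeq table for GRCm38.p6, in which 66 of the 85 members had at least 1 entry, 71 windows in all of 250 bases before the start site. Motifs chosen after the values were seen were searched on both strands: NRF1 (CGCATGCGC), ETS (CCGGAAG), and E-box (CACGTG), with the CCAAT box (CCAAT). The TATA box (TATAAA) was searched too. NRF1 and ETS factors are known activators of respiratory genes. The NRF1 letters were in 8.45% of member windows and 1.45% of all 32851 windows, and the ETS letters in 16.9% and 6.91%. The E-box stood in 8.45% and 6.02%, the CCAAT box in 42.3% and 33.8%, and the TATA box in 9.86% and 12.4%. The median number of CpG dinucleotides per window was 14 for members and 6 for all. The windows of Cox7b2, Cox7b and Ndufa8, members called in a CKO comparison, are shown in capitals where a motif matched on either strand. Cox8c, called in both CKO comparisons, had no entry among the RefSeq windows, so none is shown for it. Cox7b2 is at chr5:71548206-71548455 (minus strand), Cox7b at chrX:106015450-106015699 (plus strand) and Ndufa8 at chr2:36049339-36049588 (minus strand).
Cox7b2: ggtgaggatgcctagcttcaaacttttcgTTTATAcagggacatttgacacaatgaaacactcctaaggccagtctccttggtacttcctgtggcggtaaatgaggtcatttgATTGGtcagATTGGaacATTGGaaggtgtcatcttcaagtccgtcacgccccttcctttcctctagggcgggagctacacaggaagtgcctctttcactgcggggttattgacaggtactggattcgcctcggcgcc
Cox7b: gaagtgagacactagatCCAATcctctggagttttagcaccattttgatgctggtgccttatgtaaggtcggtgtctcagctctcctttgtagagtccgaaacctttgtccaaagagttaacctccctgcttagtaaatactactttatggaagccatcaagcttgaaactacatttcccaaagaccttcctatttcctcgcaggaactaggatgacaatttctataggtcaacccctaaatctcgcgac
Ndufa8: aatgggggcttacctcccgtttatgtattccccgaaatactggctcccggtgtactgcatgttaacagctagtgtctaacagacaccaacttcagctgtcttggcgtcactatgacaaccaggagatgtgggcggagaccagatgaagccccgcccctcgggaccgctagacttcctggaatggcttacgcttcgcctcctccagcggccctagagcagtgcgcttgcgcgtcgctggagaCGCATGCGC
The Cox7b2 window held 3 matches to the CCAAT box and 1 to the TATA box, all on the opposite strand. The Cox7b window held 1 CCAAT box, and the Ndufa8 window ended in the NRF1 letters next to the start site.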

How the data were processed

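Read counts per gene of 12 libraries, deposited by the authors, were used as they stand. Per the labels' protocols, cDNA was amplified from 1 ng of RNA (11 cycles, SMART-seq V4) and libraries were made with NEBNext Ultra II, which does not mark strand, so overlapping genes on opposite strands cannot be told apart. Per the submitters' processing notes, featureCounts was used, with TopHat2 2.0.11, Trimmomatic 0.33 and CASAVA 1.8.4, and the builds listed are mm9 and NCBIM37. How reads with several matches were counted is not given in the sources used here, so counts of near-identical copies are uncertain. Of 37991 identifiers, 32938 matched a symbol in GENCODE M21 (GRCm38), covering 99.5% of counts. Processed pseudogenes with member-like symbols (4 rows) were left out, and 1 annotated member identifier had no row.

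Genes were kept by filterByExpr (minimum count 10, minimum total 15), leaving 16708. edgeR 4.0.16 (R 4.3.3, limma 3.58.1) fitted a robust quasi-likelihood model with 1 coefficient per group, TMM factors from 0.926 to 1.11 and 8 residual degrees of freedom. P-values were adjusted by Benjamini-Hochberg over the 16708 genes, and calls were made under 0.05. SEs of log2 fold changes come from the F statistic. The script was tested on simulated data. Level per kilobase divides CPM by the length of the shortest principal transcript. Floors and intervals cover counting error only, since amplified reads are not independent molecules. Libraries of a group differed by more than counting noise (chi-square per gene from 16.8 to 66.2).

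Named were Ezh2, up to 12 called members per direction and comparison by adjusted p, the paired isoform genes, subunit c genes, X-linked members, main core subunits, the highest and lowest member of each complex, and up to 4 called genes of each pathway list. Ndufb7, Ndufc1, Ndufs6, Ndufb2 and Atp5h were called members beyond these 12 and were named as well. Members and lists were chosen with earlier results of these data known. Values of 1 member are not reported here. Alternatives were median-of-ratios and total-count scaling, other low-count filters, DESeq2 1.42.0, limma-voom with sample weights, fits of the compared groups alone, a replicate block, removal of length or GC trends, and leaving out each embryo.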

Additional observations from a re-analysis of the deposited data

Results flagged for a closer look

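In male Ctrl, the group with 4 embryos, 6 members had 1 embryo far from the other embryos. With 55 such groups checked, chance gives about 1 in 20. Male Ctrl 1 was lowest for Ndufa4 (184.5 CPM) and Ndufb3 (60.82 CPM), and highest for Sdhc (136.2 CPM) and Cox6a2 (0.0292 CPM, 1 read). Male Ctrl 4 was highest for Ndufb11 (89.6 CPM) and Cox4i2 (0.07571 CPM, 2 reads). Cox6a2 and Cox4i2 had no read in the other male Ctrl embryos. A lone embryo with reads is flagged whatever its count, so the flags of Cox6a2 and Cox4i2 carry no information. Male Ctrl 1 also had the highest Sertoli (50.2 CPM) and Leydig (10.8 CPM) marker sums and the lowest median member level (-0.24 on the log2 scale relative to the mean of the 12 libraries). Whether these go together was not tested.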

How the results depend on the processing

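With 2 female CKO embryos, leaving out 1 leaves a lone sample assumed to vary like the other groups. In the female CKO comparison members called higher numbered 2 and became 4 with DESeq2, 4 with at least 5 CPM in 2 libraries and 5 with library size only; those called lower numbered 1 and became 3 with the length trend removed and 2 with limma-voom. Leaving out embryos gave 1 to 2 higher and 0 to 1 lower, and a member median from -0.206 to 0.062, at the ends without female CKO 1 and without female CKO 2. In the male CKO comparison the 2 called higher became 4 with DESeq2, 1 with no filter on low counts and 0 with only the groups compared; limma-voom called 1 lower, and leaving out embryos gave 0 to 3 higher. The median difference of the CKO effects ran from -0.257 to -0.015 over embryos left out, and no setting called a member there. In the Ctrl sex comparison leaving out embryos gave 12 to 24 higher. In the CKO sex comparison library size only gave 23 higher, 6 lower and a median of 0.188, at least 5 CPM in 2 libraries gave 8 lower, and leaving out embryos gave 1 to 12 higher and 6 to 10 lower. The cause of these changes was not tested. Under no setting did a named member called in a comparison change sign.

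By the replicate numbers of the sample titles, correlations of same-numbered libraries ran from -0.10 to 0.15 over 15 pairs. Of the 12 libraries, 6 correlated best with a library of their own number. The count columns carry other numbers for some female libraries, and pairing by those was not tested. With 2 female CKO embryos, deviations from their group mean mirror each other, so their correlations come in pairs of opposite sign. Whether samples were paired cannot be told from these values. With the replicate block 0 members were called in the male CKO comparison, where Cox8c was at 1.24 (edgeR adjusted p = 0.0803) and Ndufa8 at 0.40 (edgeR adjusted p = 0.0838). The counts were 2 higher and 1 lower in the female CKO comparison, 26 and 5 in the Ctrl sex comparison, and 12 and 10 in the CKO sex comparison.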

Other observations

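The summed CPM of the 13 mitochondrial DNA genes ran from 8757 in female Ctrl 1 to 20790 in male Ctrl 4. Its ratio to the sum of the 85 nuclear members was 0.492, 0.708 and 0.778 in female Ctrl, 0.556 and 0.651 in female CKO, 1.01, 0.747, 0.810 and 1.07 in male Ctrl, and 0.923, 0.489 and 0.744 in male CKO. The lowest and the highest ratio were both in male libraries, and the male groups overlapped. The nuclear sum itself ran from 17350 CPM in female CKO 2 to 20300 CPM in female Ctrl 3.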
